A study of Mus musculus with 8 samples.

Results

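Genes of mitosis were compared between B cells in which the gene of the translation initiation factor EIF4A1 was targeted for deletion and control B cells after 24 h of activation in culture. The 60 genes encode the mitotic cyclins and kinases, the kinetochore and spindle checkpoint, the mitotic kinesins and other spindle proteins, an activator and 2 enzymes that work with the anaphase-promoting complex, securin and separase, and the condensins with topoisomerase II. They were chosen by gene name, and all 60 were found among the 53242 rows of the deposited tables. All 60 also had enough counts to be tested. The mice were C57BL/6, aged 8 to 12 weeks, and either Eif4a1 fl/fl with Cd23-cre (4A1 KO) or, as controls, wild type for Eif4a1 (Eif4a1 +/+) with the same Cd23-cre. B cells isolated from their spleens were placed for 24 h on CD40LB cells in medium that held 40 ng/ml of IL4, and their RNA was sequenced. Both genotypes carry the Cd23-cre transgene, which is active from immature splenic B cells on, before activation in culture. CD40LB cells are irradiated feeder cells that display CD40 ligand and secrete BAFF, and they were removed with an antibody against H-2Kd before RNA isolation. Each genotype had 4 libraries. The odd replicate numbers (1 and 3) are males and the even ones (2 and 4) females, and batch A holds numbers 1 and 2, batch B numbers 3 and 4. Replicate 1 of both genotypes had reduced viability and was left out of the main test (n = 3 per genotype), but its values are given throughout.

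Between 31727557 and 43210858 reads were counted on genes per library. Eif4a1 itself had 747 to 936 CPM (counts scaled to the library total) in the controls and 557 to 691 in 4A1 KO, without overlap. The floxed allele removes some of its exons and leaves others, so that these counts over the whole gene do not measure the deleted part, and the extent of deletion was not measured here. The B cell markers had a summed level of 8767 to 10387 CPM in control and 8242 to 8780 in 4A1 KO. By the rule for calls given below, 6 of the 9 were decreased (Cd79a, Cd79b, Blk, Cd22, Cr2 and Ighm), against 13.7% of all tested genes. Ms4a1 (log2 fold change 0.07), Pax5 (-0.23) and Fcer2a (0.30) were not called. The 12 fibroblast markers, which would mark feeder cells, had 28.5 to 50.5 CPM in control and 24.8 to 36.7 in 4A1 KO, and Postn and Lum had no count in any library. Among them Fn1 was increased (log2 fold change 0.86) and Col3a1 decreased (-1.57). Summed markers of T cells had 14.6 to 24.6 CPM in control and 10.3 to 19.5 in 4A1 KO, with Cd3g at 0 in every library. Myeloid markers had 8.75 to 14.7 and 14.1 to 16.4 CPM, with S100a8 and S100a9 at 0 and Adgre1 increased (log2 fold change 0.62), and NK cell markers had 0.741 to 1.11 and 0.312 to 0.946 CPM. Those of plasma cells had 165 to 202 CPM in control and 84.9 to 112 in 4A1 KO, and 3 of the 4 tested were decreased (Tnfrsf17 was not tested). Erythroid markers had at most 0.150 CPM. The part of these markers in the mitotic genes was not tested.

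A resting B cell that is activated grows, copies its DNA and then divides. The proteins of mitosis are made mostly in the G2 and M phases, when the transcription factors B-MYB and FOXM1, together with the MuvB complex, activate their genes. Cyclin B with CDK1 drives entry into mitosis, kinetochores attach the chromosomes to the spindle, the spindle checkpoint holds cells until every kinetochore is attached, and the anaphase-promoting complex then marks cyclin B and securin for destruction so that sister chromatids separate.

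In 4A1 KO B cells, 58 of the 60 mitotic genes were decreased and 0 were increased. Decreased and increased here mean a log2 fold change beyond 0.5 in either direction together with an adjusted p below 0.05, from the quasi-likelihood test of edgeR, with p-values adjusted by Benjamini-Hochberg over all 14218 genes tested. Of all tested genes 13.7% were decreased and 11.6% increased by this rule. An adjusted p under 0.05 alone was reached by 59 of the 60, against 53% of all tested genes. The log2 fold change of all 60 was below 0 and their median was -2.01, a level 4.02-fold lower, whereas the median over all tested genes was 0.01. It was below -2 in 30 genes, between -2 and -1 in 25, between -1 and -0.5 in 3, and above -0.5 in Bub3 and Ube2s. In a mixed culture, fewer cells in mitosis and less RNA per mitotic cell cannot be told apart.

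**Figure D1:**
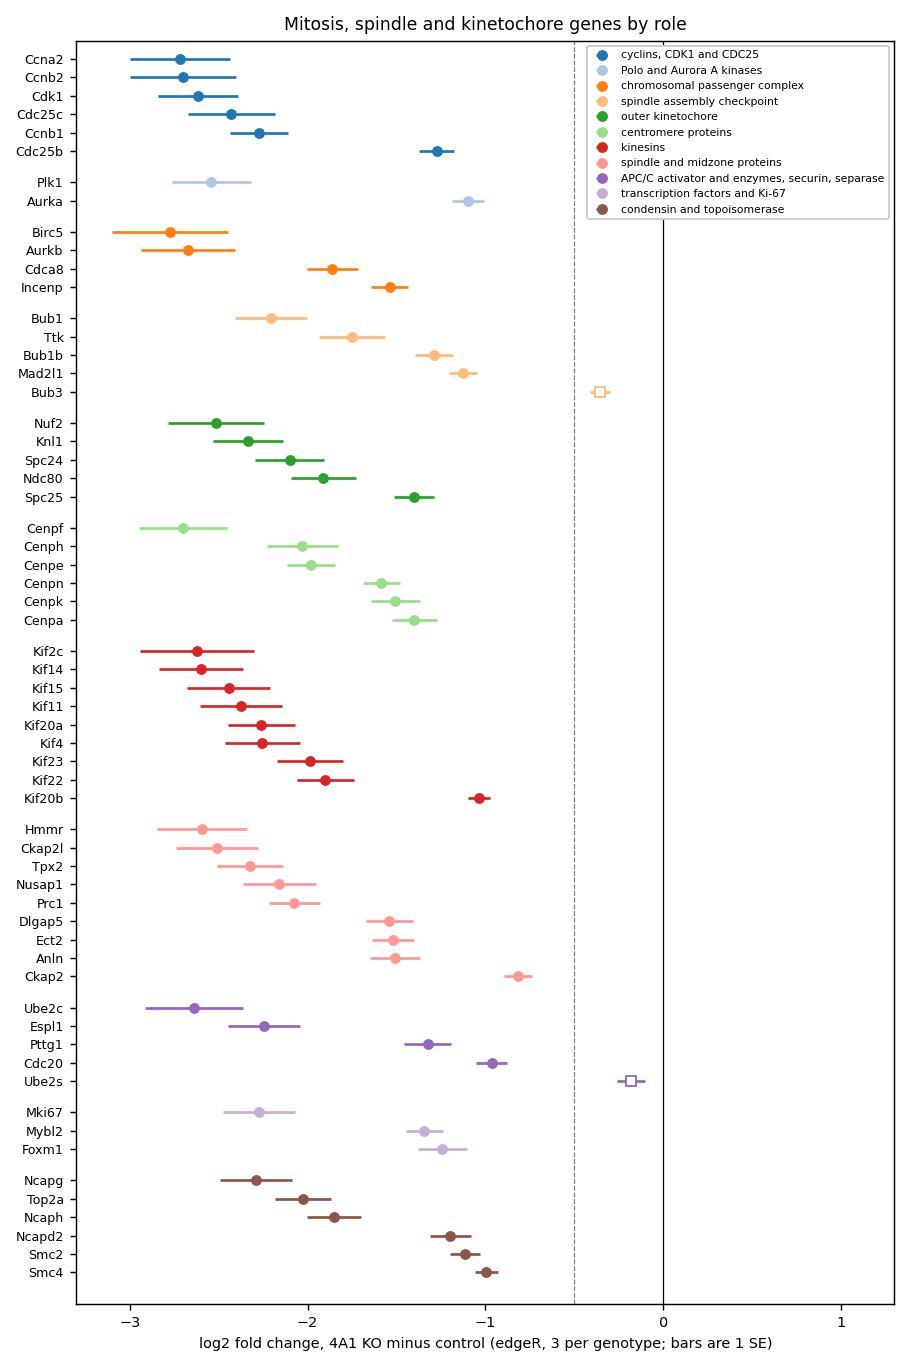
Log2 fold change of the 60 mitotic genes in 4A1 KO against control B cells, from edgeR with n = 3 per genotype, grouped by role. Points are estimates, horizontal bars are 1 standard error, open squares are the 2 genes that were not called, and the dashed line marks -0.5. All 60 points lie below 0 and 30 lie below -2.

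The summed level of the 60 genes was 2625, 4789, 3527 and 5132 CPM in controls 1 to 4. In 4A1 KO 1 to 4 it was 876, 1263, 1110 and 2194 CPM. The highest 4A1 KO library, replicate 4, thus lay below the lowest control, replicate 1. Over replicates 2 to 4 the genes took 0.448% ± 0.0845 of all counts in control B cells and 0.152% ± 0.0587 (SD, n = 3) in 4A1 KO B cells. Within same-numbered libraries the median log2 ratio over the 60 genes was -2.10, -2.40, -2.19 and -1.40 in replicates 1 to 4, which makes the median level 4.28-fold, 5.28-fold, 4.57-fold and 2.64-fold lower. The gene was lower in 4A1 KO in 59, 60, 59 and 60 of the 60 comparisons, and both exceptions were Ube2s.

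The libraries of replicate 4 showed the smallest difference. 4A1 KO 4 had the highest level of the 4A1 KO libraries in 58 of the 60 genes, and 4A1 KO 1 had the lowest in 51. Among the controls, replicate 1 was lowest in 57 genes, and replicate 4 was highest in 44 and replicate 2 in 15. The level was under 1 TPM, the length-normalized unit in which levels of different genes can be compared, for 7, 4, 4 and 0 of the 60 genes in 4A1 KO 1 to 4 and for none in any control. For 49 of the 60 genes every 4A1 KO library lay below every control library in CPM, against 19.8% of all tested genes (two-sided exact permutation test for each gene, p = 0.0286, the smallest that 4 libraries against 4 allow, which follows from the lack of overlap itself). That test exchanges libraries freely. Exchange within the 4 same-numbered pairs cannot give a p below 0.125. The other 11 were Cenpe, Kif2c, Kif14, Kif20b, Prc1, Ect2, Hmmr, Ckap2l, Cdc20, Smc2 and Ube2s. In the first 10 of them 4A1 KO 4 alone reached into the control range, and control 1 alone lay below it.

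**Figure D2:**
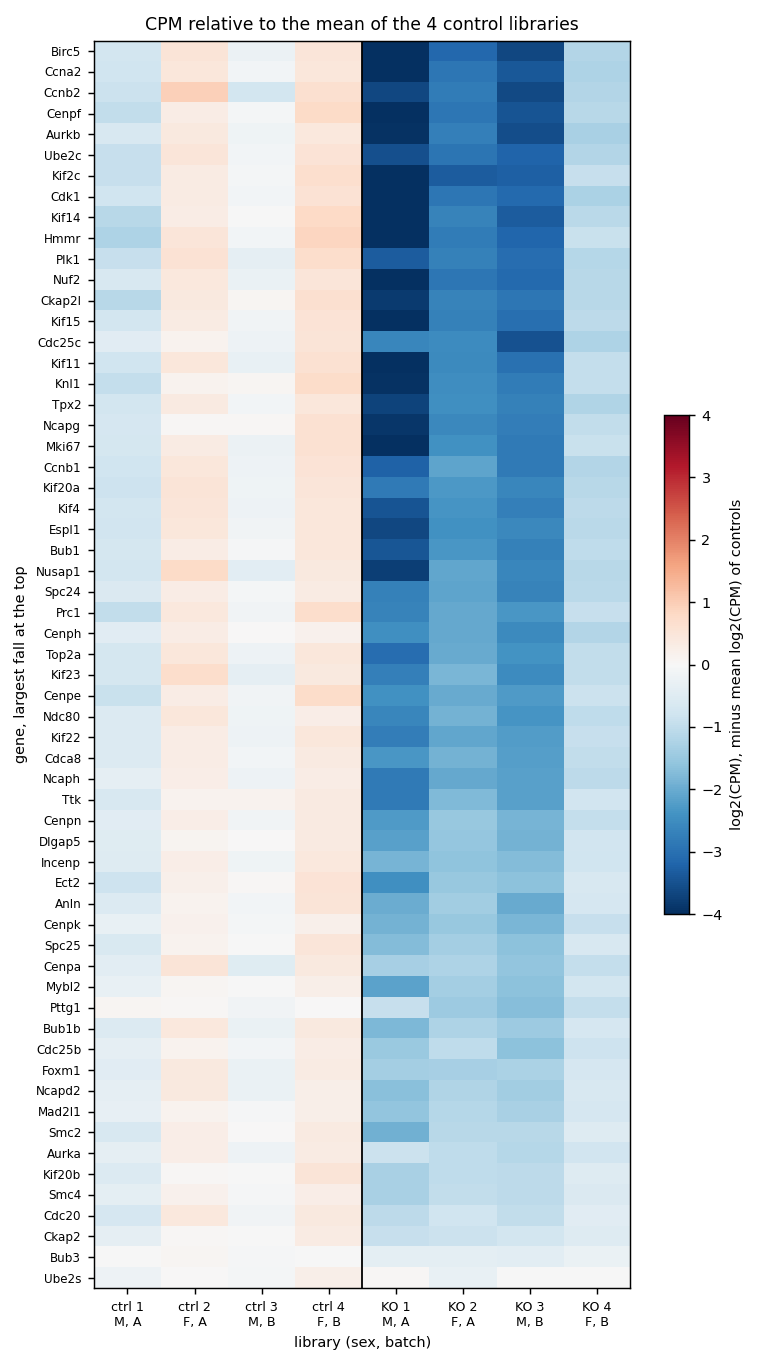
CPM of the 60 genes in the 8 libraries as log2 difference from the mean of the 4 controls, with the gene that fell most at the top and the sex (M, F) and batch (A, B) of each library below. Blue is lower and red is higher, and values below -4 have the darkest blue. The 4A1 KO libraries are blue for nearly every gene, least in replicate 4, and the rows of Bub3 and Ube2s are nearly white.

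The fall was also seen with other libraries, values and settings. In all 8 libraries 58 of the 60 genes were decreased (14.2% of all tested genes) with a median of -1.996. In the deposited TPM, made by the authors with another program, limma also called 58 decreased, against 11.8% of the genes tested. Without replicate 4 the median was -2.33, without replicate 2 it was -1.81 and without replicate 3 it was -1.90, and 58 genes were decreased each time. Leaving out replicate 4 gave the largest fall in 56 of the 60 genes, and it moved the fold change of Kif2c, Birc5, Ccnb2, Ube2c and Ccna2 by more than 1.5 times, to log2 values of -3.41, -3.53, -3.39, -3.26 and -3.31.

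The cyclins, CDK1 and the CDC25 phosphatases that activate it all fell (6 of 6, median log2 fold change -2.52). Ccna2 encodes cyclin A2, which acts in S phase and G2. It had 38.0, 93.5, 62.8 and 96.8 TPM in controls 1 to 4 and 3.39, 9.09, 6.84 and 29.5 TPM in 4A1 KO 1 to 4. The genotypes did not overlap, and 4A1 KO 4 was the 4A1 KO library nearest to the controls. Its level was 6.57-fold lower (log2 fold change -2.72, standard error 0.28, edgeR adjusted p = 7.99e-05, n = 3 per genotype), and -3.31 on the log2 scale without replicate 4. Ccnb1, cyclin B1, had 16.5, 41.5, 25.9 and 46.7 TPM in the controls and 3.38, 7.16, 4.36 and 13.4 in 4A1 KO, a log2 fold change of -2.27 (standard error 0.16). Processed copies of Ccnb1, among them Ccnb1-ps (99.2% identical over 1287 bases, at most 94 counts) and Gm12856 (98.1%, at most 58 counts), could have exchanged reads with Ccnb1, whose lowest library had 114 counts. The log2 fold changes of cyclin B2 (Ccnb2) and Cdk1 were -2.70 and -2.61. Of the CDC25 phosphatases, Cdc25c fell by 2.43, whereas Cdc25b fell least of the group. Cdc25b had 10.0, 14.3, 12.2 and 16.4 TPM in the controls and 4.33, 6.31, 4.42 and 7.41 in 4A1 KO, a level 2.42-fold lower (log2 fold change -1.27, standard error 0.10).

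The promoter windows of both cyclin B genes are given because the B cyclins are textbook targets of the mitotic transcription program. Each window holds 250 bases before the annotated start of the gene's canonical transcript and the first 50 bases from it, in the build of the files (GRCm39), written 5′ to 3′ on the strand of the gene. Capitals mark a CHR element (cell cycle genes homology region, searched as TTTGAA or TTCGAA) or a CCAAT box, the element bound by NF-Y, each on either strand, so that TTCAAA and ATTGG are also capitals.
Ccnb1 (chr13:100923067-100923366, minus strand): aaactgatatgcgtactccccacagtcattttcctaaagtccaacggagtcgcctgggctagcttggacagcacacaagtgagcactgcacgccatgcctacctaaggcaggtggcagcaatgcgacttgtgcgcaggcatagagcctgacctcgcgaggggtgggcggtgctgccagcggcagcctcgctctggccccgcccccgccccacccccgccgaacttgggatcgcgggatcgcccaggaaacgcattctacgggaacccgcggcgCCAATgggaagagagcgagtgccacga
Ccnb2 (chr9:70328825-70329124, minus strand): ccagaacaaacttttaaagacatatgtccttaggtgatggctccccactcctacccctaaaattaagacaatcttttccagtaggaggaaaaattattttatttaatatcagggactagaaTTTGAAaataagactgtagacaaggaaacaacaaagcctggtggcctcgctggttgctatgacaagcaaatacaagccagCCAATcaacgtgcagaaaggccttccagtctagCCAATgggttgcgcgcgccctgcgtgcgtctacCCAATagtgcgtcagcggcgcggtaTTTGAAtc
The window of Ccnb2 held 2 CHR elements and 3 CCAAT boxes. That of Ccnb1 held 1 CCAAT box and no CHR element.

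Of the Polo and Aurora A kinases, Plk1, which promotes mitotic entry, centrosome maturation and cytokinesis, fell by 2.54 on the log2 scale (standard error 0.22, edgeR adjusted p = 3.70e-05). It lies at chr7:121758646-121769108. Plk1 had 11.1, 32.2, 16.9 and 36.8 TPM in the controls and 2.19, 3.26, 2.72 and 10.0 in 4A1 KO. Its highest 4A1 KO library was just below its lowest control. Aurka, the kinase of the spindle poles, had 20.2, 31.2, 23.1 and 34.2 TPM in the controls and 13.9, 13.0, 12.8 and 15.8 in 4A1 KO, a level 2.14-fold lower (log2 fold change -1.10, standard error 0.09). The 4A1 KO libraries were close to each other for Aurka, and control 1 was the nearest control to them. The promoter window of Plk1 held a CHR element and a CCAAT box close to the start.
Plk1 (chr7:121758396-121758695, plus strand): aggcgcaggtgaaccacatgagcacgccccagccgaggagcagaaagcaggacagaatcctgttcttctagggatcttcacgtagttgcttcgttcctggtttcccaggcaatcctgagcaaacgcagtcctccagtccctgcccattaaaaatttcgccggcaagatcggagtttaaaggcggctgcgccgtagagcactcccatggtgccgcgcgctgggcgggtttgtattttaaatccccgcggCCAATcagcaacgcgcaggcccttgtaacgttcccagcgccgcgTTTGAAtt
With control levels of 28.6 ± 10.4 and 29.5 ± 5.76 TPM for Plk1 and Aurka (SD, n = 3), both kinase genes had similar levels in control B cells, and in 4A1 KO they had 5.34 ± 4.09 and 13.9 ± 1.68 TPM.

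The chromosomal passenger complex corrects wrong attachments and later controls cytokinesis, and its 4 genes all fell (median -2.27). Birc5, which encodes survivin, had the largest fall of the 60 genes in the test of 3 libraries per genotype. Without replicate 2 Cenpf fell further (-2.47 against -2.36 for Birc5), and Ccnb2 did so without replicate 3 (-2.64 against -2.54) and without the replicate block (-2.61 against -2.52). It lies at chr11:117740040-117746581. Birc5 had 31.4, 80.1, 48.8 and 81.0 TPM in the controls and 1.53, 6.16, 4.68 and 24.3 in 4A1 KO. The level in 4A1 KO 4 was several times that of the other 4A1 KO libraries and still below control 1. Its log2 fold change was -2.77 (standard error 0.33, edgeR adjusted p = 1.49e-04), and -3.53 without replicate 4. The log2 fold changes of the kinase of the complex, Aurkb, and of the borealin gene Cdca8 were -2.67 and -1.86. Incenp, the scaffold of the complex, had 48.9, 86.7, 65.1 and 103.2 TPM in the controls and 20.01, 24.1, 23.4 and 43.0 in 4A1 KO, a log2 fold change of -1.54 (standard error 0.11). In control B cells the 4 genes had mean levels from 70.0 to 85.0 TPM, and in 4A1 KO from 11.7 TPM for Birc5 to 30.2 TPM for Incenp.

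Of the spindle assembly checkpoint, 4 of 5 genes were decreased (median -1.29). Bub1, a kinase that recruits other checkpoint proteins to kinetochores, had 17.8, 36.7, 28.9 and 42.8 TPM in the controls and 2.75, 6.13, 4.90 and 15.1 in 4A1 KO, a level 4.61-fold lower (log2 fold change -2.20, with a standard error of 0.20). The log2 fold changes of Ttk, the MPS1 kinase, of Bub1b, which encodes BUBR1, and of Mad2l1, which encodes MAD2, were -1.75, -1.29 and -1.13. Bub3, the partner of BUB1 and BUBR1, was not called. Bub3 had 110, 132, 112 and 126 TPM in the controls and 94.2, 91.6, 88.3 and 92.2 in 4A1 KO. The genotypes did not overlap, but the difference was small, at -0.35 on the log2 scale (standard error 0.06, edgeR adjusted p = 7.79e-04), inside the limit of 0.5. It ranged from -0.42 to -0.30 when each replicate was left out. Bub3 also works outside mitosis, in mRNA splicing. Its promoter window is shown because it is one of the 2 genes that fell least. It held 1 CHR element and 2 CCAAT boxes.
Bub3 (chr7:131161832-131162131, plus strand): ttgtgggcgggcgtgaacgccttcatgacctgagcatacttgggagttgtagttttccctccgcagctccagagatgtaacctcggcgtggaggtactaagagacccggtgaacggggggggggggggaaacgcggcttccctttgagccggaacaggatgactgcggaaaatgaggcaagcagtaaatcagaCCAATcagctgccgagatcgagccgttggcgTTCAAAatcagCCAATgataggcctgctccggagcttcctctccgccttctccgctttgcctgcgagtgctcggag
The canonical start used for this window lies downstream of the first annotated base of Bub3 (chr7:131161880-131178553).

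The 5 genes of the outer kinetochore, where microtubules bind, all fell (median -2.10). The NDC80 complex is a rod of 4 proteins, and its genes fell by different amounts. Log2 fold changes of Nuf2, Spc24, Ndc80 and Spc25 were -2.51, -2.10, -1.91 and -1.40. Nuf2 had 18.8, 40.3, 25.1 and 44.2 TPM in the controls and 1.42, 3.83, 3.49 and 13.9 in 4A1 KO. Spc25 had 14.1, 24.6, 22.9 and 32.5 TPM in the controls and 6.604, 8.81, 7.42 and 14.7 in 4A1 KO. For Spc25 the level in 4A1 KO 4 was above that in control 1 by TPM but not by CPM, and for Nuf2 the genotypes were apart by both. The standard errors of Nuf2 and Spc25 were 0.27 and 0.11 on the log2 scale. Knl1, the scaffold that the checkpoint kinases bind, fell by 2.34. 2700099C18Rik, which has a transcript annotated as a pseudogene, is 92.7% identical to Ndc80 over 763 bases. It had up to 240 counts (median 167), against 128 for Ndc80 in its lowest library. Reads could have been exchanged between them in the counting, and the extent of this was not measured.

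All 6 genes of centromere proteins fell (median -1.78). Cenpf, a large protein of the outer kinetochore in G2 and M phase, had 2.13, 5.40, 4.13 and 7.71 TPM in the controls and 0.132, 0.591, 0.406 and 2.05 in 4A1 KO, a log2 fold change of -2.70 (standard error 0.25). It was under 1 TPM in 3 of the 4 4A1 KO libraries, and 4A1 KO 4 was just below control 1. Cenpa, the histone H3 variant that marks the centromere, had 14.7, 32.1, 15.6 and 27.4 TPM in the controls and 8.06, 8.34, 6.501 and 10.7 in 4A1 KO, a log2 fold change of -1.40 (standard error 0.13). Both male controls were lower than both female controls for Cenpa. Cenpe, a kinesin that moves chromosomes to the spindle equator, fell by 1.98 on the log2 scale. The log2 fold changes of Cenph, Cenpn and Cenpk were -2.03, -1.58 and -1.51.

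All 9 kinesins fell (median -2.26). These motor proteins move along microtubules or take them apart. Kif2c, which depolymerizes microtubules at centromeres, had 4.73, 11.6, 8.90 and 15.5 TPM in the controls and 0.472, 0.906, 1.06 and 5.17 in 4A1 KO. 4A1 KO 4 lay above control 1, although it was below its own control. The log2 fold change was -2.62 (standard error 0.32), and -3.41 without replicate 4. Kif11, the motor that separates the spindle poles, and Kif15, which can act in its place, had log2 fold changes of -2.37 and -2.44. Those of Kif14, Kif20a and Kif23, which act in cytokinesis, were -2.60, -2.26 and -1.99. The chromosome-bound kinesins Kif4 and Kif22 had -2.25 and -1.90. Kif20b fell least, with 10.6, 16.1, 15.6 and 22.3 TPM in the controls and 6.08, 7.58, 7.50 and 11.03 in 4A1 KO, a log2 fold change of -1.04 (standard error 0.06), and again 4A1 KO 4 was above control 1. Kif14 had the lowest control level of the 60 genes, with 1.62, 4.37, 3.79 and 6.56 TPM in the controls and 0.158, 0.572, 0.357 and 1.82 in 4A1 KO. 4A1 KO 4 was the highest of its genotype and lay above control 1. The means were 4.91 ± 1.46 TPM in control and 0.918 ± 0.792 TPM in 4A1 KO (SD, n = 3).

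The 9 genes of other spindle and midzone proteins all fell (median -2.07). Hmmr, a spindle protein that binds hyaluronan outside the cell, had 4.26, 14.6, 9.92 and 19.3 TPM in the controls and 0.589, 1.57, 1.14 and 5.73 in 4A1 KO, a log2 fold change of -2.59 (standard error 0.25). Its level in 4A1 KO 4 was above that in control 1. For Tpx2, which activates Aurora A, and the midzone bundler Prc1 the log2 fold changes were -2.32 and -2.07, and those of Nusap1 and Dlgap5 were -2.16 and -1.54. Ect2 and Anln, a RhoA activator and the anillin of the cleavage furrow, had -1.52 and -1.51. The related genes Ckap2l and Ckap2 differed, with log2 fold changes of -2.51 (standard error 0.23) and -0.82 (standard error 0.08). Ckap2 had 14.0, 19.1, 18.4 and 24.0 TPM in the controls and 9.62, 10.1, 11.8 and 13.4 in 4A1 KO, so that the genotypes were apart by a small margin. It fell least of the 58 genes called.

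Of the 5 genes for an activator and enzymes that work with the anaphase-promoting complex, for securin and for separase, 4 were decreased (median -1.33). None of them encodes a subunit of the complex. Ube2c, the enzyme that starts ubiquitin chains for the complex, had 24.1, 66.6, 44.6 and 71.1 TPM in the controls and 4.08, 6.19, 5.29 and 21.6 in 4A1 KO. It lies at chr2:164611768-164620742. The log2 fold change of Ube2c was -2.64 (standard error 0.28, edgeR adjusted p = 8.13e-05), and -3.26 without replicate 4. Ube2s, the enzyme that extends those chains, had 103.4, 131, 121 and 152 TPM in the controls and 119, 99.1, 122 and 120 in 4A1 KO. The genotypes overlapped, and 4A1 KO was the higher library in replicates 1 and 3 and the lower one in replicates 2 and 4. Its log2 fold change was -0.18 (standard error 0.08, edgeR adjusted p = 0.0844), and -0.06 in all 8 libraries. Leaving out each replicate gave -0.29 to -0.10, and the adjusted p was 0.0126 without replicate 3 (edgeR). Ube2s and Ube2c work one after the other on the same substrates, and in control B cells they had 135 ± 16.1 and 60.8 ± 14.2 TPM (SD, n = 3). In 4A1 KO they had 113 ± 12.4 and 11.03 ± 9.18 TPM.

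Espl1, which encodes separase, and Pttg1, which encodes its inhibitor securin, had log2 fold changes of -2.24 and -1.33. Cdc20, the activator of the complex in mitosis, had 24.9, 54.8, 37.9 and 56.7 TPM in the controls and 19.2, 23.5, 21.4 and 31.1 in 4A1 KO, a log2 fold change of -0.97 (standard error 0.09). 4A1 KO 4 was above control 1 but below the other controls. The windows of Cdc20 and Ube2s are set beside each other because both act with the anaphase-promoting complex and one fell while the other was not called.
Cdc20 (chr4:118294561-118294860, minus strand): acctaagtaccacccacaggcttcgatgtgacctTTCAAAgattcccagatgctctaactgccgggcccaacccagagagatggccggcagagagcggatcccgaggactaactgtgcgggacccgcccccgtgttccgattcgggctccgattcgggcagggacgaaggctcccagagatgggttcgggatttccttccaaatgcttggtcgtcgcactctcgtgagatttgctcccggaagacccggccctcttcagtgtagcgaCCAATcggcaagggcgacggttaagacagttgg
Ube2s (chr7:4815540-4815839, minus strand): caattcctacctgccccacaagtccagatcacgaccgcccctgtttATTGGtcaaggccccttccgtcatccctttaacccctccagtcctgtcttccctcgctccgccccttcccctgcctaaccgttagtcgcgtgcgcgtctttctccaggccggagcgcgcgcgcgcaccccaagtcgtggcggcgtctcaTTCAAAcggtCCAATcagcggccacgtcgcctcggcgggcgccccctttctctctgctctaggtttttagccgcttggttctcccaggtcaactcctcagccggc
The window of Cdc20 held 1 CHR element, far upstream, and 1 CCAAT box just after the start. That of Ube2s, the gene that changed least, held 1 CHR element and 2 CCAAT boxes.

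The transcription factor genes Foxm1 and Mybl2 and the proliferation marker Mki67 fell. Mybl2 encodes B-MYB and was the second most abundant of the 60 genes in control B cells. It had 129, 169, 165 and 205 TPM in the controls and 35.4, 62.7, 53.5 and 99.9 in 4A1 KO, a level 2.54-fold lower (log2 fold change -1.34, standard error 0.10, edgeR adjusted p = 2.22e-05). The genotypes were apart. Foxm1 had 11.8, 22.6, 15.3 and 22.5 TPM in the controls and 7.14, 7.36, 7.53 and 11.8 in 4A1 KO. The level in 4A1 KO 4 was close to that of control 1, whereas the other 4A1 KO libraries were below every control. Its log2 fold change was -1.24 (standard error 0.14). Mki67, which encodes the surfactant of mitotic chromosomes Ki-67 and lies at chr7:135291513-135318299, had 32.1, 67.9, 46.8 and 86.0 TPM in the controls and 3.16, 10.1, 7.79 and 29.99 in 4A1 KO, a log2 fold change of -2.27 (standard error 0.20). 4A1 KO 4 was the only 4A1 KO library near the lowest control. A processed copy, Gm3320, is 99.7% identical to Mybl2 over 742 bases and had at most 91 counts, against at least 2029 for Mybl2.

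All 6 genes of condensin and topoisomerase fell (median -1.52). Top2a, topoisomerase II alpha, which untangles sister chromatids, was the most abundant of the 60 genes. It lies at chr11:98883769-98915062. Top2a had 99.8, 227, 149 and 239 TPM in the controls and 19.97, 42.1, 33.3 and 86.7 in 4A1 KO, a level 4.07-fold lower (log2 fold change -2.03, standard error 0.16, edgeR adjusted p = 2.25e-05). Condensin I is made of 2 SMC proteins that it shares with condensin II and of 3 further proteins. The changes of the shared genes were the smallest in size, with no test of the difference. The log2 fold changes were -0.99 for Smc4, -1.12 for Smc2, -1.20 for Ncapd2, -1.85 for Ncaph and -2.29 for Ncapg. Smc4 had 107, 165, 144 and 185 TPM in the controls and 56.1, 70.0, 72.9 and 100.3 in 4A1 KO (log2 fold change -0.99, standard error 0.06). Ncapg had 16.02, 27.3, 27.7 and 41.6 TPM in the controls and 1.93, 4.27, 4.01 and 13.7 in 4A1 KO (log2 fold change -2.29, standard error 0.20). Neither gene overlapped between the genotypes.

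**Figure D3:**
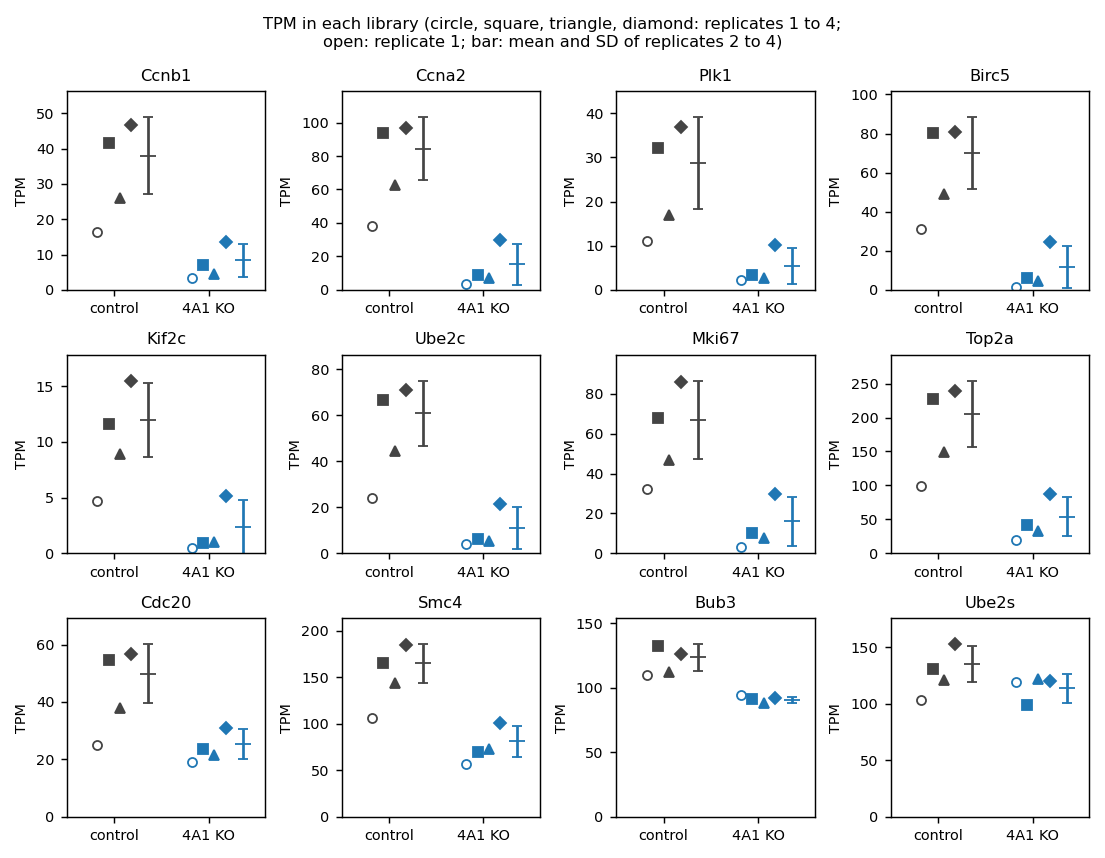
TPM of 12 of the genes in each library, with control in grey and 4A1 KO in blue, symbols for replicates 1 to 4 (open circles for replicate 1), and the mean and SD of replicates 2 to 4 beside them. Each axis starts at 0. In all but Bub3 and Ube2s the 4A1 KO libraries lie low, with replicate 4 (diamond) the highest in most panels, and in Ube2s the genotypes overlap.

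Across the 60 genes, Spearman's rho between the log2 fold change and the mean control TPM was 0.20, a description across genes that share their libraries. The 5 genes with the highest control TPM, Top2a, Mybl2, Smc4, Ube2s and Bub3, had log2 fold changes from -2.03 to -0.18.

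A further 131 genes outside the 60, of mitosis and of related families, were examined by role, and all 131 were tested. Not all of them act in mitosis: the group of other kinesins also holds Kif1b, a transport motor. Of these, 62 were decreased and 2 were increased, with a median log2 fold change of -0.46. The share decreased lay between that of the 60 genes and the 13.7% of all tested genes, and whether the lists differ was not tested. The largest falls in this test were in Nek2, a centrosome kinase, Esco2 and Cdca5, which establish cohesion between sister chromatids, Ska1, which holds kinetochores on microtubules, and Kif18b, a kinesin of astral microtubules. Their log2 fold changes were -2.71, -2.54, -2.38, -2.38 and -2.31. Nek2 had 10.6, 27.0, 17.8 and 29.1 TPM in the controls and 1.33, 2.69, 1.84 and 8.46 in 4A1 KO, and Ska1 had 3.25, 11.1, 5.55 and 11.2 TPM and 0.2696, 1.18, 0.908 and 2.46. Neither overlapped between genotypes in TPM, and 4A1 KO 4 was again the highest 4A1 KO library.

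The increased genes were Psrc1, which encodes a microtubule-binding protein and is a target of p53, and Kif1b, a kinesin that carries organelles. Psrc1 had 11.7, 14.3, 13.6 and 22.4 TPM in the controls and 26.6, 32.0, 28.1 and 41.4 in 4A1 KO, a level 2.04-fold higher (log2 fold change 1.03, standard error 0.09, edgeR adjusted p = 3.1e-05). Kif1b had 1.67, 2.65, 2.41 and 3.19 TPM in the controls and 2.69, 3.52, 4.62 and 4.93 in 4A1 KO, a log2 fold change of 0.66 (standard error 0.10). In TPM the genotypes were apart for Psrc1 and overlapped for Kif1b. With a test against a log2 fold change of 0.5 itself, 1 of the 2 remained called.

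The counts by group of these further genes stand against the 13.7% of all tested genes that were decreased. Several groups are small, and differences between groups were not tested. In the kinetochore assembly group 12 of 17 genes were decreased (median -0.99), and in the constitutive centromere network also 12 of 17 (median -0.99). Of the midbody and cytokinesis genes 6 of 9 were decreased (median -1.29), led by Shcbp1 at -2.27 and Cep55 at -1.96. Among the regulators of mitotic entry (kinases, phosphatases, CDK-binding subunits and cyclin F) 9 of 20 were decreased, with -2.71 for Nek2 and -2.23 for Mastl, the Greatwall kinase, and 0.05 for Wee1, which inhibits CDK1. Of spindle and centrosome proteins 10 of 18 were decreased, and of augmin, the complex that branches microtubules, 3 of 8. For condensin II the count was 2 of 3 and for other kinesins 3 of 7.

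Of the 16 genes in the group of anaphase-promoting complex subunits, an activator and an inhibitor 1 was decreased, a share below the 13.7% of all tested genes. That gene, Fbxo5, encodes the inhibitor EMI1 (log2 fold change -1.53). The 15 subunit and activator genes had log2 fold changes from -0.45 to 0.15 and none was called. Of the 16 cohesin genes 4 were decreased, Esco2, Cdca5, Sgo1 and Sgo2a, which establish or protect cohesion. The 10 genes of the cohesin ring, its loader and its release factors, such as Smc1a (-0.35), Rad21 (-0.36), Nipbl (0.45) and Wapl (0.32), were not called. Esco1 (-0.11) and Hdac8 (-0.02) of the same group were not called either. The cohesin ring and the anaphase-promoting complex also work in interphase. Of the 5 genes described above that work with these complexes, Ube2s also stayed inside the fold limit, and Cdc20, Pttg1, Espl1 and Ube2c were 1.95-fold, 2.51-fold, 4.73-fold and 6.22-fold lower. The difference from the subunit genes was not tested.

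**Figure D4:**
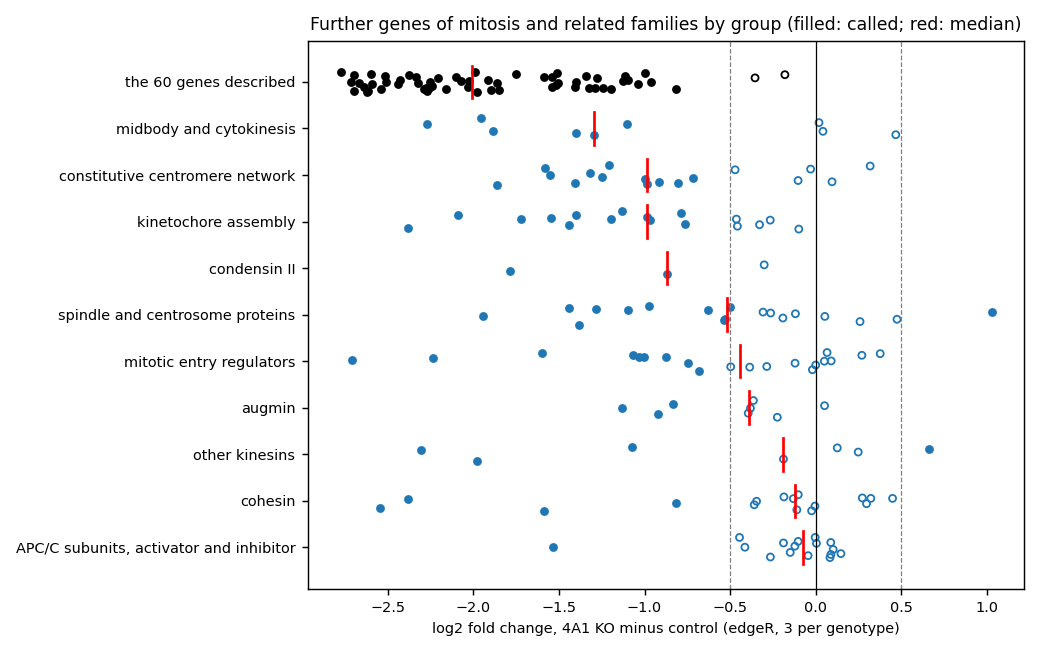
Log2 fold change in 4A1 KO against control (edgeR, n = 3 per genotype) of the 60 genes described (black) and of 131 further genes of mitosis and related families by group (blue), each point being a gene. Filled points were called, red lines are medians and dashed lines mark -0.5 and 0.5. The medians run from -2.01 for the 60 genes to -0.07 for the group that holds the subunits of the anaphase-promoting complex with an activator and an inhibitor.

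Genes of the earlier cell cycle phases were taken for comparison. Of 46 genes of DNA replication and deoxynucleotide supply 37 were decreased and 0 were increased (median log2 fold change -0.94). Of 14 genes of G1 cyclins, CDKs and CDK inhibitors 5 were decreased and 1 was increased (median -0.31). Of all tested genes 13.7% were decreased and 11.6% increased. The median of the replication genes thus lay between that of the 60 mitotic genes (-2.01) and that of the 131 further ones (-0.46), with no test of the difference between lists.

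Levels of the mitotic genes also differed with sex and batch, a comparison chosen after their values were seen. With both sexes of both batches in the fit (8 libraries), 50 of the 60 genes were lower in males, against 1.99% of all tested genes, with a median log2 difference of -0.87. Ccnb2 differed most (-1.68) and Ube2s least (-0.04). Without replicate 1, 0 of the 60 passed the threshold (0.113% of all tested genes did), 58 had an unadjusted p under 0.05 in edgeR (11.4% of all tested genes did), and the median difference was -0.98. The female library was higher in 59 of 60 genes in control of batch A, in 60 in control of batch B, in 57 in 4A1 KO of batch A and in 59 in 4A1 KO of batch B. The median female level was 2.02-fold, 1.505-fold, 1.66-fold and 2.63-fold that of the male. In 57 of the 60 genes (95.0%) the female library was higher in all 4 comparisons, which 18.4% of all tested genes showed. Batch A includes the males of reduced viability. In batch B alone the female library was higher in both genotypes in 59 of 60 genes (98.3%), against 33.1% of all tested genes. Each sex of each batch is 1 control and 1 4A1 KO library, so that within a batch sex and the individual culture cannot be told apart. Across both batches the male side includes the replicate 1 libraries of reduced viability.

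In the same fit of 8 libraries, which includes the replicate 1 libraries of reduced viability in batch A, 26 of the 60 genes were higher in batch B than in batch A, against 3.42% of all tested genes (median log2 difference 0.48). Without replicate 1 the count was 8, against 2.53% of all tested genes (median 0.51), and batch then rests on the replicate 2 libraries against those of replicate 4. The genotype effect itself was examined for a difference between sexes and between batches. No interaction with sex passed an adjusted p of 0.05 in the 60 genes (0% of all tested genes did), and DESeq2 also called 0. An unadjusted p under 0.05 was reached by 11 of the 60 in edgeR, against 2.85% of all tested genes, and by 8 in DESeq2, against 0.88%. The median interaction over the 60 genes was -0.31 on the log2 scale. For the interaction with batch 0 of the 60 passed (0.00704% of all tested genes did), and DESeq2 called 0. An unadjusted p under 0.05 was reached by 18 in edgeR, against 4.29% of all tested genes, and by 13 in DESeq2, against 1.54%, with a median of 0.40 in edgeR. These fits hold 1 library for each genotype, sex and batch.

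The promoter windows of the 60 genes were searched for CHR elements, CCAAT boxes and E2F sites, which played no part in choosing the genes. None of the 3 was in 16 windows (26.7%), against 49.3% of the windows of tested protein-coding genes. A CHR element was in 32 of the 60 windows (53.3%), against 15.6% of the windows of 11436 tested protein-coding genes and 18.8% of 21770 protein-coding genes. A CCAAT box was in 38 (63.3%), against 40.2% and 39.9%. Both elements were in 26 windows (43.3%), against 6.78% and 8.25%, and 2 or more CCAAT boxes in 22 (36.7%), against 14.8% and 12.7%. An E2F site, searched as TTTCCCGC, TTTGGCGC or TTTCGCGC on either strand, was in the windows of Cdk1 and Kif15 alone (3.33%), against 3.51% and 2.32%. The 131 further genes had a CHR element in 26.7% of windows, a CCAAT box in 51.1% and an E2F site in 13.0%. Counts were also made by the size of the fall within the 60 genes. A CHR element was in 16 of the 30 windows of genes with the larger falls and in 16 of the 30 with the smaller ones, a CCAAT box in 20 and 18, and an E2F site in 2 and 0. These are matches of letters in a fixed window and no test was made.

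**Figure D5:**
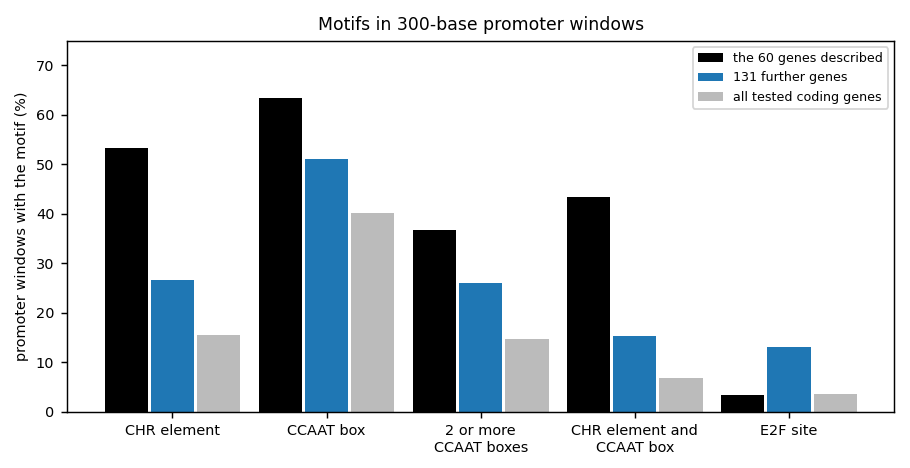
Share of promoter windows of 300 bases that held each element, in percent, for the 60 genes (black), 131 further genes of mitosis and related families (blue) and 11436 tested protein-coding genes (grey). The 60 genes have the highest bar for the CHR element (53.3%), for the CCAAT box (63.3%) and for both together (43.3%), and the further genes have the highest for the E2F site (13.0%).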

How the data were processed

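RNA-seq of 8 libraries, 4 per genotype, was used, with genotype, sex, batch and replicate number from their labels. The authors trimmed the reads with Trim Galore 0.6.6, mapped them to GRCm39 with HISAT2 2.1.0 and deposited raw counts from Seqmonk, made on merged isoforms with strand-specific pairs. The authors also deposited TPM, calculated with StringTie 2.1.1 from the same alignments. The treatment of multi-mapped reads is not given in the sources used here. Totals were 31727557 to 43210858 counts per library.

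The counts of replicates 2, 3 and 4 were tested in R 4.3.3 with edgeR 4.0.16 (filterByExpr by genotype, TMM, quasi-likelihood test, two-sided) over all genes, with batch and sex as covariates and Benjamini-Hochberg adjustment. Calls needed an adjusted p below 0.05 together with a log2 fold change beyond 0.5 in either direction. In these 6 libraries batch and sex equal the replicate number as a block. Same-numbered libraries share batch and sex by their labels, and after subtraction of the genotype means their correlations across genes were 0.49, 0.40 and 0.33. Other pairs had a mean of -0.20, but the subtraction itself ties this value to those of the same-numbered pairs, so it is no independent comparison. The TPM were also tested, as log2(TPM + 1) of genes whose mean reached 1 TPM, with limma 3.58.1. CPM are counts scaled to the library total. The code was tested on simulated data.

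Fits with other normalizations, filters, pseudocounts, tools (DESeq2 1.42.0, glmTreat) or libraries were made as alternatives. The 60 genes and the other lists were chosen with earlier results of these data known. Values in every library are given for the gene that changed most and the gene that changed least in each role, the genes not called, the 3 highest control TPM, and Ccna2, Ccnb1, Foxm1, Mybl2 and Mki67. Of the 131 further genes, the 5 largest decreases and the increases among called genes are named by rule, and others as examples chosen after their values were seen. Promoter windows came from the GRCm39 sequence and the GENCODE M39 annotation, which matched 52647 of the 53242 identifiers. The study used 4 mice per genotype, and p-values measure the spread between their libraries. One further marker gene is not reported here.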

Additional observations from a re-analysis of the deposited data

Results flagged for a closer look

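In 5 of 120 sets of 4 libraries (60 genes in 2 genotypes) 1 library stood apart from the other 3. For independent sets about 6 would be expected, but the genes share their libraries, so that the count cannot be judged against this number. In all 5 the library that stood apart was 4A1 KO 4, and it was the highest, as it was of its genotype in 58 of the 60 genes. The gap to the next library made up 0.85 of the whole range for Plk1, with 11.5 CPM against 3.90 in the next. For Cenpe the share was 0.835 (18.03 against 8.08 CPM) and for Kif2c 0.893 (7.40 against 1.47 CPM). For Ube2c it was 0.877 (10.9 against 3.25 CPM) and for Foxm1 0.901 (23.8 against 15.6 CPM). 4A1 KO 4 also had the highest Eif4a1 level of the 4A1 KO libraries (691 CPM, against 557 to 635), and whether this has a part in its mitotic genes was not tested.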

How the results depend on the processing

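Without the replicate block the pairing is ignored, and then 58 of the 60 genes were decreased with a median log2 fold change of -1.94, so that it changed no call among them. All 600 values of the 60 genes under 10 alternatives kept their direction and their side of the threshold. The count of 58 held in the fits that left out a replicate, and their median ran from -2.33 to -1.81. Of the 131 further genes 56 to 64 were decreased over the alternatives. Their count of increased genes fell from 2 to 1 with glmTreat, which tests against the fold limit itself, and was 3 in all 8 libraries and without replicate 4. The count without overlap was 49 in CPM and 45 in TPM. The lower level in males, examined after the values were seen, was called in 50 genes in 8 libraries and in 0 without replicate 1, and the higher level in batch B in 26 and 8. The adjusted p of Ube2s ran from 0.0126 to 0.594 in edgeR over the alternatives other than glmTreat. Counts limit the lowest genes, such as Kif14 with 21 reads in its lowest library.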

Other observations

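Several pairs of genes whose products work together changed by unequal amounts. Ccnb1 and Ccnb2 were close in log2 fold change (-2.27 and -2.70), whereas Ube2c and Ube2s (-2.64 and -0.18), Plk1 and Aurka (-2.54 and -1.10), Cdc25c and Cdc25b (-2.43 and -1.27), Ckap2l and Ckap2 (-2.51 and -0.82), and Bub1 and Bub3 (-2.20 and -0.35) were further apart. These pairs were chosen after their values were seen, and the differences within them were not tested.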
